A study of Mus musculus with 6 samples.

Results

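Immunoglobulin light chain genes were defined by symbol, as every gene whose name begins with Igkv, Igkj, Igkc, Iglv, Iglj or Iglc, and 118 of the 27179 genes in the count table met that rule. They comprised 109 kappa genes on chromosome 6 (103 Igkv, 5 Igkj and 1 Igkc) and 9 lambda genes on chromosome 16 (3 Iglv, 3 Iglj and 3 Iglc). RNA-seq libraries, 6 in all, were made from germinal center (GC) B cells, the dividing and mutating B cells of an immune response, sorted from spleen as NP+ IgG1+ B220+ CD38- CD138- IgM- IgD- Gr1- cells. Mice were WT (C57BL/6) or Il21r-/-, which lack the receptor for the cytokine IL-21, and were studied on days 7, 10 and 14 after intraperitoneal immunization with NP-KLH in alum, a hapten (NP) on a carrier protein. There was 1 library per genotype and day. The labels describe each sample as an independent mouse, whereas the study's methods give several mice per genotype from more than 1 immunization. For the sort of day 7, a supplementary legend of the study gives 3 mice of each genotype. The sources differ, so the number of mice behind a library is not settled. The labels give no age, and by the study's methods the mice were matched for age and sex. By the same methods, every experiment other than a BrdU/EdU time course was done in irradiated Ly5.1 hosts given WT or Il21r-/- marrow, in which host cells can persist, and the labels do not mention such hosts.

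A B cell receptor pairs a heavy chain with a light chain, which is either kappa or lambda. A light chain gene is assembled by joining a V segment to a J segment upstream of a constant (C) gene, and each B cell normally uses 1 such product. Mouse B cells mostly use kappa, with many V genes to choose from, whereas the lambda locus holds few. The primary antibody response of C57BL/6 mice to NP is an exception that is dominated by lambda light chains, in particular those using Iglv1.

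Read counts can separate light chain genes only where their sequences differ. Sequences are from GENCODE vM21 on GRCm38 (mm10), and 114 of the 118 members had a coding sequence there. Iglv1 and Iglv2 matched at all but 8 of the last 300 bases of the V exon, an identity of 97.3%. Capitals mark the differing bases in chr16:19085017-19085316 (Iglv1) and chr16:19260401-19260700 (Iglv2), both on the minus strand.
Iglv1: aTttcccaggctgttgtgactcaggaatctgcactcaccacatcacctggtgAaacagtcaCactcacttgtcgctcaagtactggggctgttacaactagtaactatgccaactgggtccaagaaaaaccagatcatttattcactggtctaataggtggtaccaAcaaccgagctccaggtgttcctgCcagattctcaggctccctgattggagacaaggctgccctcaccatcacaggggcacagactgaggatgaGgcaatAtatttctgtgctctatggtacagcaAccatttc
Iglv2: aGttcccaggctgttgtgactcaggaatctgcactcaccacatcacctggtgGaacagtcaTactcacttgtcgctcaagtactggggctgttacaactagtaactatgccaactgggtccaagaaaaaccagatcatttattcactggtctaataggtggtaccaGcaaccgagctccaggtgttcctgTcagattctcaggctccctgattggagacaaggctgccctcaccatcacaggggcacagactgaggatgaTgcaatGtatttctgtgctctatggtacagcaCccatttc
Of the 201 stretches of 100 bases, the read length, in this part of the exon, 5 were identical between Iglv1 and Iglv2, and 161 (80.1%) differed at 2 bases or fewer. Counts of Iglv1 and Iglv2 are therefore uncertain relative to each other, the more so because V genes of GC B cells carry mutations. Iglv3 shared 48.9% of aligned columns with Iglv1.

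The constant genes Iglc2 and Iglc3 were 96.2% identical over 315 aligned columns and had no identical stretch of 100 bases, whereas Iglc1 shared 73.4% with Iglc2 and 74.2% with Iglc3. The first 90 aligned bases are shown because lambda shares were computed on these genes, with capitals at every position where the 3 genes are not all the same. They lie on the minus strand at chr16:19061982-19062071 (Iglc1), chr16:19198763-19198852 (Iglc2) and chr16:19065592-19065681 (Iglc3).
Iglc1: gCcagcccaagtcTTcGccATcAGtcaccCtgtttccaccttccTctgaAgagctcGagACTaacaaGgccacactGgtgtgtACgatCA
Iglc2: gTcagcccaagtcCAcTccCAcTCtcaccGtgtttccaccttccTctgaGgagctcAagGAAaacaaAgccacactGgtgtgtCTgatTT
Iglc3: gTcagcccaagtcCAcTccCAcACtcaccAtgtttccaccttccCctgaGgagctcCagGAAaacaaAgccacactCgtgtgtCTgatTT
The lambda J segments, which link V to C, are only 38 bases long. Capitals mark bases that differ from the base shared by most of the 3 segments, at chr16:19063225-19063262 (Iglj1), chr16:19200198-19200235 (Iglj2) and chr16:19067041-19067078 (Iglj3) on the minus strand.
Iglj1: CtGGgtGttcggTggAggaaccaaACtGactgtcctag
Iglj2: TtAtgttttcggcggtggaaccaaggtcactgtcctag
Iglj3: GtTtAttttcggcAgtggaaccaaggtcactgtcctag
Iglj2 and Iglj3 matched at 89.5% of positions, against 76.3% for Iglj1 and Iglj2.

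For kappa, the ends of the 3 V exons with the largest mean share of Igkv counts are given, at chr6:68220647-68220706 (Igkv2-112), chr6:67610449-67610508 (Igkv1-135) and chr6:68571176-68571235 (Igkv12-98), all on the plus strand. Capitals mark the letters TANTANTGN, searched on the coding strand only, which hold the codon of the conserved cysteine ahead of the antigen-contacting CDR3 loop.
Igkv2-112: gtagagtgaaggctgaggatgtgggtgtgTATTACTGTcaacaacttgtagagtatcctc
Igkv1-135: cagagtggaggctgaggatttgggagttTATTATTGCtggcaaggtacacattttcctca
Igkv12-98: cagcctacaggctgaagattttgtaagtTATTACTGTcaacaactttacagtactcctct
Those letters occurred in the last 60 bases of 78 of 99 Igkv V exons (78.8%). Of 99 Igkv genes with a coding sequence to compare, 44 had at least 1 stretch of 100 bases found exactly in another light chain gene, pseudogenes included, and in 2 of them over 50% of stretches were shared.

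The libraries held 21353438 to 27435124 counts on all genes, of which 189080 to 337603 were on light chain genes. Il21r, the targeted gene, was measured at 345.7, 258.5 and 246.9 CPM (counts per 1000000, scaled by TMM-normalized library size) in WT on days 7, 10 and 14 and at 105.8, 124.8 and 111.9 in Il21r-/-, so it was lower in Il21r-/- on every day without being absent. All 12 GC B cell markers passed the expression filter. Of 9 T cell markers 7 stayed under 1 CPM in every library, among them Cd3e, Cd3d and Cd3g. The other 2, Lck and Thy1, passed the filter. The summed level of the 9 was 88.1 to 122.9 CPM in WT and 85.1 to 117.0 CPM in Il21r-/-. Of 8 plasma cell markers Sdc1 and Tnfrsf17 stayed under 1 CPM. Of 10 markers of non-GC B cells, 6 were higher in Il21r-/- over 3 days by edgeR, among them Ccr7, Fcer2a and S1pr1, with the summed level of the 10 at 569.8 to 1243 CPM in WT and 948.0 to 1496 CPM in Il21r-/-. Ighm, another of the 10, went the other way, at 485.4, 370.5 and 255.4 CPM in WT and 288.4, 268.0 and 215.6 CPM in Il21r-/- (edgeR adjusted p = 0.051, and 0.00065 with day as a block).

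Lambda was the main light chain in every library. The lambda share of light chain constant gene counts was 81.2% (Wilson 95% confidence interval 81.0 to 81.4%), 79.7% (79.4 to 79.9%) and 78.8% (78.6 to 79.1%) in WT on days 7, 10 and 14. It was 88.0% (87.8 to 88.1%), 83.2% (83.0 to 83.4%) and 80.8% (80.6 to 81.0%) in Il21r-/-. These intervals, like all below, cover counting error only, since PCR copies of a molecule cannot be recognised without molecular identifiers.

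The share was lower in WT than in Il21r-/- on 3 of 3 days, with WT minus Il21r-/- at -6.79, -3.55 and -1.99 percentage points, and it was lower on day 14 than on day 7 in both genotypes. The ranges of the genotypes overlapped, since Il21r-/- on day 14 lay below WT on day 7. The mean was 79.9% ± 1.22 (SD, n = 3) in WT and 84.0% ± 3.67 (SD, n = 3) in Il21r-/-, a difference of -4.11 points (two-sided exact permutation p = 0.2, Benjamini-Hochberg 0.333 over 5 tests of library values). With 3 libraries against 3 this test cannot go below 0.1, and with genotypes exchanged only within a day it gave an exact p of 0.25, the smallest that arrangement allows. Counted over all light chain genes, the difference was -4.12 points (exact permutation p = 0.2). Without Il21r-/- on day 7 these differences were -2.11 and -2.23 points.

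Light chain genes as a whole took a larger part of the libraries from Il21r-/- mice. They held 1.14% (Wilson 95% confidence interval 1.13 to 1.14%), 0.909% (0.905 to 0.913%) and 0.885% (0.882 to 0.889%) of all counts in WT on days 7, 10 and 14. In Il21r-/- they held 1.41% (1.41 to 1.42%), 1.16% (1.15 to 1.16%) and 1.21% (1.20 to 1.21%). All 3 Il21r-/- libraries lay above all 3 WT libraries, with a difference in means of -0.281 percentage points and an exact permutation p of 0.1, the smallest possible here (Benjamini-Hochberg 0.333 over 5 tests). In bulk samples, fewer cells of a type and less RNA per cell cannot be told apart.

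The heavy chain partner gave a reference within the same cells. Ighg1, the constant gene of the IgG1 heavy chain by which the cells were sorted, did not pass the test over 3 days (log2 fold change -0.13, standard error 0.12, edgeR adjusted p = 0.616). Light chain constant genes held 1.67, 1.42 and 1.79 counts per Ighg1 count in WT on days 7, 10 and 14, and 2.14, 1.57 and 2.37 in Il21r-/-. This ratio was higher in Il21r-/- on each day, and lowest on day 10 in both genotypes. For lambda alone it was 1.35, 1.13 and 1.41 in WT and 1.88, 1.31 and 1.91 in Il21r-/-, whereas Igkc gave 0.313, 0.289 and 0.38 in WT and 0.257, 0.265 and 0.455 in Il21r-/-, with no order of genotypes that held on all days.

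**Figure D1:**
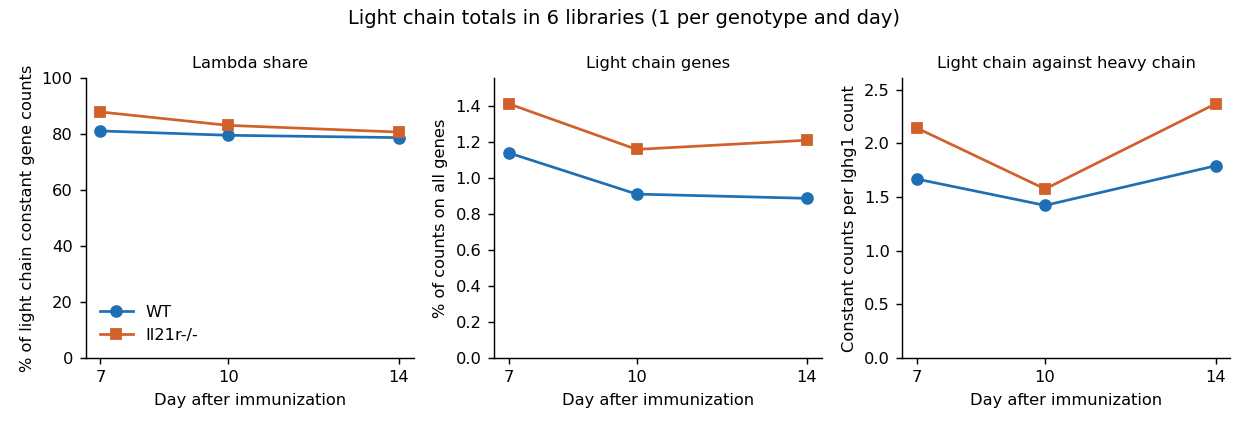
Lambda share of light chain constant gene counts (%), light chain share of all counts (%) and light chain constant gene counts per Ighg1 count, each against day, with 1 point per library and lines joining the days of a genotype. The Il21r-/- library lies above the WT library of the same day in each panel, and the difference in lambda share (WT minus Il21r-/-) goes from -6.79 percentage points on day 7 to -1.99 on day 14.

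Among single genes, the genotype effect over 3 days was tested by edgeR's quasi-likelihood test with a linear effect of day, over 11136 genes that passed an expression filter (average log2 CPM of at least 0). Positive log2 fold changes mean higher in WT. Of the 118 light chain genes 103 passed that filter (89 Igkv, all 9 lambda, 4 Igkj and Igkc), and 3 of them (2.91%) were differentially expressed, against 5.23% of all genes tested. Iglc2 and Iglv2 were higher in Il21r-/-, the direction of 3.91% of all genes tested, and Igkv4-57-1 was higher in WT. The median log2 fold change was -0.17 over the 103 genes and -0.54 over the 9 lambda genes, against 0.00 over all genes.

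Over all genes tested, the libraries of a day deviated together from their genotype means (r = 0.601, 0.345 and 0.583 on days 7, 10 and 14). Over the 103 light chain genes these correlations were 0.165, -0.0802 and 0.0787. A fit with day as a factor was also made. With day as this block, 16 of the 103 genes (15.5%) were differentially expressed, against 21.1% of all genes tested, 11 of them higher in Il21r-/- and 5 higher in WT. The 16 included 7 of the 9 lambda genes, all higher in Il21r-/-, where 12.2% of all genes tested were called in that direction and 8.9% in the other. They also included 8 of 89 Igkv genes (8.99%) and Igkj4. The V, J and C genes of a lambda chain are joined in 1 transcript, so the lambda genes are not independent of each other.

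Iglc1 and Iglv1, the constant and V genes of the most abundant lambda chain, had the highest levels. Iglc1 was measured at 3963, 3011 and 3075 CPM in WT on days 7, 10 and 14 and at 5503, 3861 and 4647 CPM in Il21r-/-, and ranked between position 8 and 16 of all genes by count in each library. Iglv1 was measured at 3584, 2540 and 2594 CPM in WT and at 4852, 3447 and 3548 CPM in Il21r-/-. Both were higher in Il21r-/- on each day, although WT on day 7 lay above Il21r-/- on day 10. Their log2 fold changes of -0.48 (standard error 0.16) and -0.44 (standard error 0.15) did not pass the test with a linear day effect (edgeR adjusted p = 0.136 and 0.145), and passed with day as a block (adjusted p = 0.000105 and 0.000151).

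Iglc2 and Iglv2 encode the lambda2 constant and V regions. Iglc2 was measured at 499.3, 357.3 and 353.7 CPM in WT on days 7, 10 and 14 and at 772.5, 590.5 and 523.3 CPM in Il21r-/-. Iglv2 was measured at 510.0, 422.3 and 348.7 CPM in WT and at 773.0, 562.2 and 701.2 CPM in Il21r-/-. For both genes every Il21r-/- library lay above every WT library, as it did for 9.33% of all genes tested. The log2 fold change was -0.64 for Iglc2 (standard error 0.12, edgeR adjusted p = 0.0208, and -0.64 with adjusted p = 1.43e-06 with day as a block). For Iglv2 it was -0.68 (standard error 0.15, edgeR adjusted p = 0.0361, and -0.67 with adjusted p = 0.000895 with day as a block). Neither call held when any 1 library other than Il21r-/- on day 10 was left out, with log2 fold changes from -0.72 to -0.55 for Iglc2 and from -0.81 to -0.48 for Iglv2 over the 6 omissions.

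Iglc3, the constant gene of lambda3, was measured at 442.2, 266.5 and 353.7 CPM in WT and at 609.7, 469.0 and 468.3 CPM in Il21r-/-, again without overlap. Its log2 fold change was -0.54 (standard error 0.17, edgeR adjusted p = 0.118, and 5.42e-05 with day as a block). The J segments Iglj2 and Iglj3 lay between 13.3 and 21.4 CPM in WT and between 22.5 and 34.2 CPM in Il21r-/-, each without overlap, with log2 fold changes of -0.48 and -0.76 (edgeR adjusted p = 0.137 and 0.0532, and 0.00223 and 2.45e-05 with day as a block).

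The other lambda genes, Iglj1 and Iglv3, did not pass either test of genotype. Iglj1, the J segment that lies beside Iglc1, was measured at 74.9, 114.1 and 128.3 CPM in WT and at 202.0, 86.4 and 209.7 CPM in Il21r-/-, with WT the higher of the pair on day 10. Iglv3 was measured at 178.0, 176.5 and 122.3 CPM in WT and at 201.9, 175.8 and 87.9 CPM in Il21r-/-. It was the only lambda gene differentially expressed with day, at -0.13 on the log2 scale per day (standard error 0.03, edgeR adjusted p = 0.0493), and its genotype log2 fold change was 0.09.

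**Figure D2:**
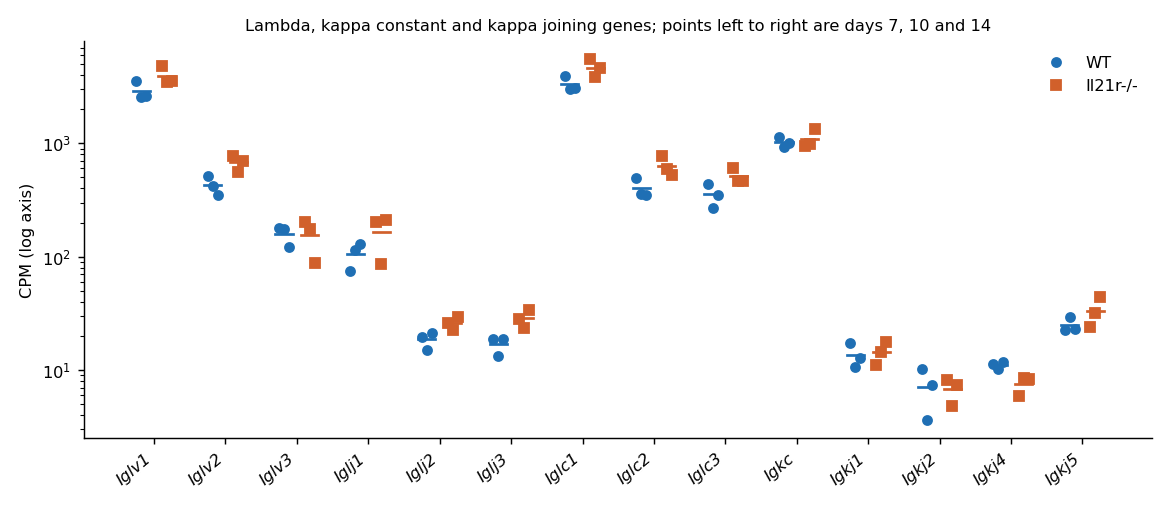
CPM on a log axis of the 9 lambda genes, Igkc and 4 kappa J genes in 6 libraries, with points from left to right for days 7, 10 and 14 and a short line at the mean of each genotype. The Il21r-/- libraries lie above all WT libraries for Iglv2, Iglj2, Iglj3, Iglc2 and Iglc3, and the genotypes overlap for Igkc.

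Iglv1 held the largest share of lambda V counts in every library, and its share overlapped between the genotypes. It held 83.9% (Wilson 95% confidence interval 83.7 to 84.1%), 80.9% (80.6 to 81.2%) and 84.6% (84.4 to 84.9%) of Iglv counts in WT on days 7, 10 and 14. In Il21r-/- it held 83.3% (83.1 to 83.5%), 82.4% (82.1 to 82.6%) and 81.8% (81.6 to 82.0%). The difference in means was 0.669 points with an exact permutation p of 0.7, and read sharing with Iglv2 limits this split. Iglv3 held 4.17, 5.62 and 3.99% of Iglv counts in WT and 3.46, 4.20 and 2.03% in Il21r-/-, higher in WT on 3 of 3 days with overlapping ranges. Iglv2 held 11.9, 13.5 and 11.4% in WT and 13.3, 13.4 and 16.2% in Il21r-/-, and neither share was tested. Iglc1 held 78.5 to 82.8% of Iglc counts, Iglc2 9.28 to 12% and Iglc3 7.33 to 9.53%. Scaled to counts per kilobase of exon, Iglv1 stood at 0.696 to 0.825 of Iglc1 and the sum of Igkv genes at 0.644 to 0.76 of Igkc. Iglv2 stood at 0.865 to 1.22 of Iglc2, the highest in Il21r-/- on day 14.

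Day by day, with no replicate within a day, edgeR's likelihood ratio test called Iglv2 on day 14, at a log2 fold change of -1.01 (adjusted p = 0.0131). With DESeq2's Wald test, fitted with a linear day term in place of a mean for each day, this call was lost (-0.92, adjusted p = 0.352). On that day 2 of 103 light chain genes were called, against 2.75% of all genes tested, the other being Igkv4-78. On day 7 the count was 1, Igkv6-32, against 0.925% of all genes. On day 10 it was 0 against 2.57%. There 18 light chain genes had an unadjusted p under 0.05, against 1107 of all 11136 genes tested. DESeq2's Wald test, again with the linear day term, called 12 light chain genes on that day, against 135 of all genes tested. With a linear day term edgeR called 9, against 619.

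Kappa expression showed no such order of the genotypes. Igkc, the sole kappa constant gene, was measured at 1135, 928.6 and 1017 CPM in WT on days 7, 10 and 14 and at 939.0, 993.7 and 1340 CPM in Il21r-/-. It was higher in WT on day 7 and higher in Il21r-/- on day 14, with a log2 fold change of -0.07 over 3 days (standard error 0.15, edgeR adjusted p = 0.834, and 0.714 with day as a block). Whether the genotype effect on Igkc differed from that on the lambda genes was tested only through the lambda share above.

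The kappa J segments, counted on 38 or 39 bases each, had low levels. Igkj5 held the largest share of Igkj counts in all 6 libraries, 36.5, 54.1 and 41.5% in WT on days 7, 10 and 14 and 48.6, 52.9 and 56.4% in Il21r-/-. Igkj3, which is regarded as nonfunctional, held 0.768 to 1.24% and did not pass the filter. Igkj4 was measured at 11.3, 10.1 and 11.8 CPM in WT and at 5.94, 8.54 and 8.25 CPM in Il21r-/-, without overlap, and its log2 fold change of 0.56 (standard error 0.16, edgeR adjusted p = 0.0918) passed with day as a block (adjusted p = 0.00858). Igkj1 and Igkj2 had log2 fold changes of -0.06 and 0.05, signs that turned when single libraries were left out.

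The use of kappa V genes was broad and differed from library to library. Of 103 Igkv genes 99 to 101 had a count in each library, on totals of 16553 to 25911 Igkv counts. A single gene's share of those counts carried a Wilson 95% interval of at most 0.521 percentage points to either side, and a count of 0 allows a share of up to 0.0116 to 0.0181%. The effective number of Igkv genes (the inverse Simpson index, the number of equally used genes that would give the same concentration) was 45.2, 16.5 and 27.0 in WT on days 7, 10 and 14 and 39.7, 19.1 and 27.0 in Il21r-/-. It was lowest on day 10 and highest on day 7 in both genotypes. The means were 29.6 ± 14.5 (SD, n = 3) in WT and 28.6 ± 10.4 (SD, n = 3) in Il21r-/-, a difference of 0.948 with an exact permutation p of 1. The number of Igkv genes needed for 50% of Igkv counts was 17, 6 and 9 in WT and 16, 9 and 9 in Il21r-/-.

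Igkv2-112 (chr6:68219981-68220705) had the largest mean share. It held 3.10, 15.7 and 4.996% of Igkv counts in WT on days 7, 10 and 14 and 3.13, 17.97 and 7.87% in Il21r-/-. Both libraries of day 10 stood above the other 4, and the genotypes were within 3 percentage points of each other on each day. Its linear day trend did not pass the test (0.10 log2 per day, standard error 0.15, edgeR adjusted p = 0.803), nor did genotype (log2 fold change -0.31, adjusted p = 0.881).

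Igkv1-135 (chr6:67609745-67610508) held 6.43, 12.7 and 4.79% in WT and 9.03, 6.73 and 5.58% in Il21r-/-. It and Igkv2-112 were the 2 genes among the 10 most used in all 6 libraries, whereas 25 genes reached the 10 most used of some library and 12 of these did so in 1 library only. Igkv12-98 (chr6:68570763-68571235) held 1.94, 1.11 and 8.22% in WT and 1.23, 4.66 and 8.04% in Il21r-/-, with a day trend of 0.33 log2 per day that did not pass the test (edgeR adjusted p = 0.126).

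The other 9 of the 12 leading genes (Igkv9-124, Igkv10-96, Igkv5-43, Igkv9-120, Igkv6-15, Igkv5-45, Igkv1-117, Igkv4-92 and Igkv3-12) had mean shares between 2.20 and 3.92%. Igkv9-124 held 2.44, 7.06 and 6.94% in WT and 1.84, 3.67 and 1.55% in Il21r-/-, and Igkv5-43 held 2.80, 4.31 and 2.74% in WT and 2.50, 5.20 and 2.99% in Il21r-/-. The highest share of a leading gene was 2.08 to 24.2 times its lowest, with a median of 3.83, and Igkv4-92 had the widest range, from 0.243% in WT on day 10 to 5.90% in WT on day 14. The 12 genes together held 36.8 to 57.1% of Igkv counts, and 76 of the 103 genes had mean shares under 1%.

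Of the other genes, the 5 with the largest share in any 1 library were chosen for that value. Igkv1-110 held 6.13% in Il21r-/- on day 14 against 0.693 to 1.63% elsewhere, and Igkv3-2 held 5.24% in the same library against 0.23 to 1.96% elsewhere. Igkv12-41 held 6.02% in WT on day 14 against 0.201 to 1.52%, and Igkv3-4 held 3.52% in WT on day 7 against 0.115 to 0.302%. Igkv8-16 held 3.17% in Il21r-/- on day 7 against 0.691 to 2.06%. The library that was high differed among these genes, with both genotypes among them.

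**Figure D3:**
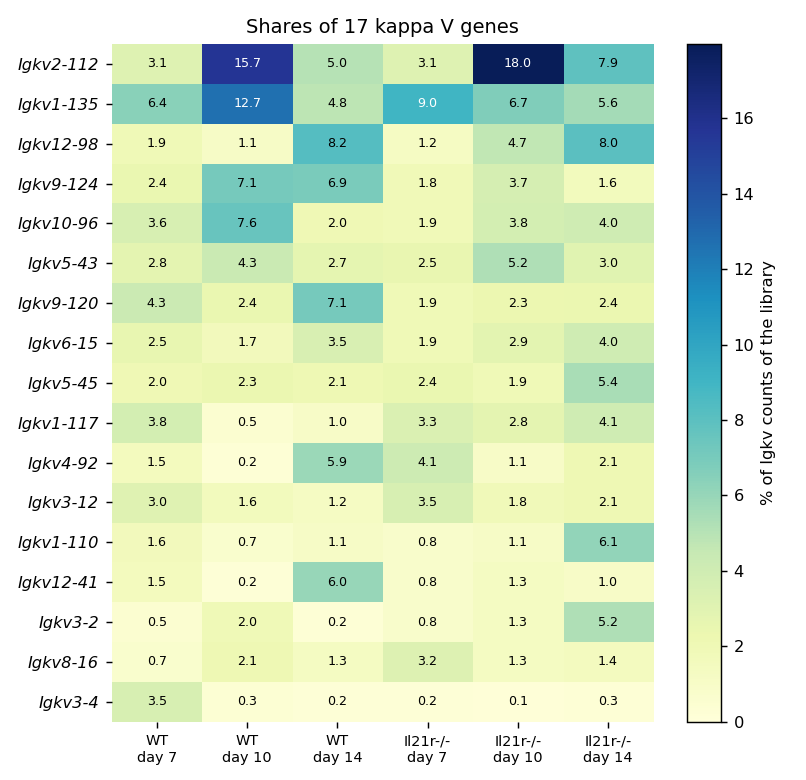
Share of Igkv counts (%) of the 12 kappa V genes with the largest mean share and 5 more with the largest share in any 1 library, in 6 libraries, with colour from 0 to the highest share and the value printed in each cell. Igkv2-112 reaches 15.7 and 17.97% on day 10, and the last 5 genes are each high in 1 library.

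The rank order of Igkv genes was similar in all libraries without being closer within a genotype. Across the 103 genes, which are not independent replicates, Spearman's rho between shares lay between 0.716 and 0.792 for the 6 pairs of libraries of 1 genotype, between 0.745 and 0.763 for the 3 pairs of a day, and between 0.701 and 0.8 for the other 6 pairs. All pairs share the same gene set and read lengths, and no test was made of them. By position, the 35 Igkv genes farthest from the J segments held 49.8, 64.6 and 56.8% of Igkv counts in WT on days 7, 10 and 14 and 49.4, 61.5 and 55.7% in Il21r-/-. They include Igkv2-112, Igkv1-135 and Igkv12-98.

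**Figure D4:**
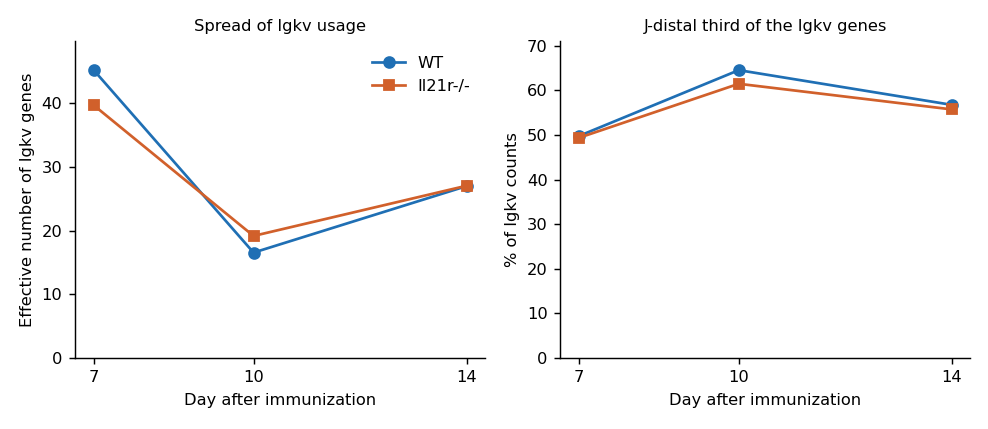
Effective number of Igkv genes (inverse Simpson index) and share of Igkv counts (%) held by the 35 Igkv genes farthest from the J segments, each against day, with 1 point per library. On day 10 the number is at its lowest, 16.5 for WT against 19.1 for Il21r-/-, when the share of the distal genes is 64.6 and 61.5%.

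Among Igkv families, the groups of V genes with related sequence, Igkv1 held the largest mean share, 14.9% of Igkv counts from 10 genes, followed by Igkv4 with 11.9% from 28 genes and Igkv2 with 10.8% from 3 genes. Igkv9 held 9.24, 9.87 and 14.8% in WT and 4.54, 6.45 and 4.61% in Il21r-/-, so that the ranges did not overlap, and this family was chosen after its values were seen and not tested. Igkv2 followed its leading gene, with day 10 shares of 17.3% (WT) against 21.0% (Il21r-/-).

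The spread between libraries was much larger for kappa V genes than for the rest. The biological coefficient of variation estimated by edgeR around the additive model had a median of 39.8% over 89 Igkv genes, with quartiles of 28.1 and 58.8%, against 12.7% over all genes tested, 14.1% over the lambda genes and 13.4% for Igkc. The standard errors of the genotype effect were 0.27 to 0.84 for Igkv1-135, Igkv12-98 and Igkv2-112, against 0.12 to 0.16 for Iglc1, Iglc2, Iglv1 and Iglv2.

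Igkv4-57-1 (Entrez 384514, chr6:69544368-69544892) was the one Igkv gene differentially expressed over 3 days, where 5.23% of all genes tested were. It was measured at 5.72, 2.997 and 4.36 CPM in WT and at 1.88, 0.82 and 1.28 CPM in Il21r-/-, from 22 to 156 counts per library, and every WT library lay above every Il21r-/- library, as for 8.97% of all genes tested. Its log2 fold change was 1.73 (standard error 0.33, edgeR adjusted p = 0.024, and 1.18e-05 with day as a block). The call was lost without WT or Il21r-/- on day 7 or on day 14. No stretch of 100 bases of it was found in another light chain gene.

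With day as a block, Igkv4-63, Igkv6-25 and Igkv3-1 were also higher in WT, and Igkv4-69, Igkv4-70, Igkv4-80 and Igkv4-86 higher in Il21r-/-, with adjusted p from 0.00437 to 0.0313 by edgeR. Igkv4-63 was measured at 2.49, 1.24 and 1.17 CPM in WT and at 0.829, 0.336 and 0.797 CPM in Il21r-/-. The 4 genes higher in Il21r-/- belong to the Igkv4 family and stood between 0.16 and 8.12 CPM. Igkv6-32 and Igkv4-78 were called on single days. On day 7, Igkv6-32 was counted 332 times in WT against 15 in Il21r-/-, a log2 fold change of 4.21 (adjusted p = 0.0471 by edgeR's likelihood ratio test), and it was counted 133 times against 33 on day 10 and 26 times against 29 on day 14. Igkv4-78 was counted 3 times in WT against 29 in Il21r-/- on day 14, 8.22 times higher in CPM with an exact 95% counting interval of 2.55 to 42.2 (adjusted p = 0.0473 by the same test), and shares 18.9% of its 100-base stretches with other genes. With DESeq2's Wald test, in the fit with a linear day term, the adjusted p of Igkv4-78 was 0.9995.

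**Figure D5:**
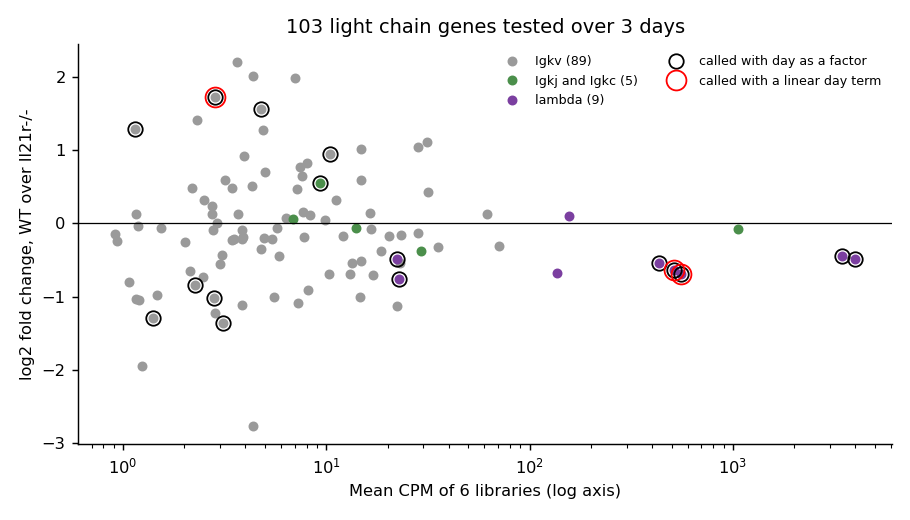
Log2 fold change over 3 days (WT over Il21r-/-) against mean CPM on a log axis for the 103 light chain genes tested, coloured by class, with rings around genes called with a linear day term (3) or with day as a factor (16). Lambda genes other than Iglv3 lie between -0.76 and -0.44, whereas Igkv genes range from -2.76 to 2.20.

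The day trend, tested in the same edgeR fit, called 7 of the 103 light chain genes (6.8%), against 3.74% of all genes tested. Igkv3-1 rose, and Igkv4-50, Igkv4-69, Igkv4-73, Igkv2-137, Igkv8-30 and Iglv3 fell. Igkv3-1 (chr6:70703578-70704177) was measured at 4.65, 11.03 and 22.4 CPM in WT on days 7, 10 and 14 and at 1.66, 4.51 and 18.5 CPM in Il21r-/-, an increase of 0.40 log2 per day (standard error 0.04, edgeR adjusted p = 0.00631). It increased at each step in both genotypes.

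Igkv4-50 was measured at 5.97, 2.04 and 0.609 CPM in WT and at 5.33, 1.90 and 0.558 CPM in Il21r-/-, and fell by 0.47 log2 per day (standard error 0.04, edgeR adjusted p = 0.00631), with both genotypes close to each other on each day. Igkv4-69 and Igkv4-73 fell by 0.47 and 0.42 log2 per day (edgeR adjusted p = 0.00868 and 0.00875), and Igkv8-30 and Igkv2-137 by 0.29 and 0.19 (adjusted p = 0.0484 and 0.0295). Igkv2-137 was measured at 13.2, 12.1 and 7.31 CPM in WT and at 22.9, 10.3 and 6.78 CPM in Il21r-/-. None of the 7 calls held without the WT or without the Il21r-/- library of day 7, when no gene of any kind was called. Those of Iglv3, Igkv2-137, Igkv8-30 and Igkv4-69 were also lost without WT on day 14, and those of Iglv3 (-0.08 log2 per day) and Igkv2-137 without Il21r-/- on day 14. That of Iglv3 was lost with TMM factors computed without Ig genes (adjusted p = 0.0538).

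Whether the day trend differed between genotypes was tested by an interaction term, and 0 of the 103 light chain genes passed, as did 0 of 11136 genes in all (edgeR's quasi-likelihood test, smallest adjusted p = 0.9999). Of the 103 light chain genes 24 had an unadjusted p under 0.05, against 141 of all 11136 genes, and no other tool was run for this term. This fit left fewer residual degrees of freedom than the additive fit, so the lack of calls does not show that the trends were alike.

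The partners of the light chains were given by lists. Of 11 heavy chain and receptor genes, Ighe, the constant gene of IgE, was higher in Il21r-/- over 3 days (log2 fold change -2.84, standard error 0.15, edgeR adjusted p = 0.000191) and Ighm fell with day (-0.10 log2 per day, adjusted p = 0.0427). With day as a block, 5 of the 11 were higher in Il21r-/-, among them Cd79a and Cd79b, the signalling chains of the receptor, and 2 were higher in WT. These were Ighm and Ighg3, the constant genes of IgM and IgG3 (log2 fold changes 0.49 and 0.66, edgeR adjusted p = 0.00065 and 0.00114 with day as a block). Cd79b was measured at 2711, 2043 and 2110 CPM in WT on days 7, 10 and 14 and at 3477, 2545 and 2736 CPM in Il21r-/- (log2 fold change -0.35, edgeR adjusted p = 0.215, and 0.00148 with day as a block). It was higher in Il21r-/- on each day, as the lambda genes of high count were, and the libraries of the genotypes overlapped.

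Of 13 surrogate light chain and V(D)J recombination genes, 7 were tested. Rag2 and Igll1 had 0 counts in all libraries, and Rag1, Dntt, Vpreb1 and Vpreb2 stayed under 1 CPM. Vpreb3, which binds light chains during their assembly in the cell, fell with day (-0.11 log2 per day, edgeR adjusted p = 0.0198) and was measured at 262.1, 195.4 and 148.9 CPM in WT and 312.4, 228.8 and 193.4 CPM in Il21r-/-. Of 16 factors that bind light chain promoters and enhancers, Pax5 was higher in Il21r-/- (log2 fold change -0.66, edgeR adjusted p = 0.0436), at 105.2 to 147.0 CPM against 67.9 to 89.3 CPM in WT. Of 9 genes that act in V gene mutation, the mismatch repair genes Msh6 and Exo1 were higher in WT (log2 fold changes 0.48 and 0.47, edgeR adjusted p = 0.0419 and 0.0491), and 6 were with day as a block.

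Some markers of other cells also differed between the genotypes. Of the 8 plasma cell markers Jchain, Xbp1 and Mzb1, genes of antibody secretion, were higher in Il21r-/- with day as a block (log2 fold changes -0.25, -0.38 and -0.26, edgeR adjusted p = 0.0253, 0.000751 and 0.0136), whereas Prdm1, a regulator of plasma cells, was higher in WT (log2 fold change 1.65, adjusted p = 0.0244 with the linear day term). The summed level of the 8 was 3519 to 4070 CPM in WT and 3881 to 5225 CPM in Il21r-/-. The part of plasma cell and non-GC B cell markers in the light chain levels was not tested.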

How the data were processed

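The authors mapped 100-base single-end reads to mm10 using Rsubread, pooled technical replicates, assigned reads to RefSeq genes (the annotation built into featureCounts) and deposited these raw counts, which are whole numbers without normalization. Base calling is given as CASAVA 1.8.2 in the submitters' processing notes. Strand and multi-mapping settings are not given in the sources used here, so reads of near-identical or overlapping genes may have been lost or assigned to either gene. The deposited table and the 6 single-library files were identical, and 0 columns were left without a sample.

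Entrez identifiers were matched to symbols through RefSeq (25275) and GENCODE vM21 (18 more), and 1886 had none. The RefSeq table lists 62 more light chain genes, all pseudogenes, which are not among the counted genes and were not analysed here. Of the 118 genes, 114 had a count in every library, and 1 had 0 counts in all. The members and gene lists were chosen with earlier results of these data known.

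Genes with an average log2 CPM under 0, Y-chromosome genes and Xist were left out; Ig V genes were kept, unlike in the study. With R 4.3.3 and edgeR 4.0.16, TMM factors and robust dispersions were computed on genotype plus a linear day effect (3 residual degrees of freedom). Genotype over 3 days and the day trend were tested by quasi-likelihood F tests, and genotype on single days by likelihood ratio tests in which every day had its own mean, whose error comes from all 6 libraries. P-values were adjusted by Benjamini-Hochberg over 11136 genes, with calls made under 0.05. Library values were compared by two-sided exact permutation tests (scipy 1.17.1). Spleens were taken from killed mice, so libraries of different days or genotypes come from different mice. Pooling of mice within a library is not settled, and p-values measure only the spread between these samples. Identities came from global alignments (Biopython 1.88). The fits were tested on simulated counts drawn with the same dispersion for every gene and no day effect. Such counts do not cover the wider spread of the Igkv genes.

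Day pairs the libraries of the genotypes by the labels. Relative to the genotype means, log2 CPM of the libraries of a day correlated across the 11136 genes with r = 0.601, 0.345 and 0.583 on days 7, 10 and 14, and a second fit had day as a block. Over the 103 light chain genes these were 0.165, -0.0802 and 0.0787. Other alternatives were DESeq2 1.42.0 size factors and Wald test, TMM factors without Ig genes, other filters, a linear day term in the day-wise fit, other definitions of the shares, and leaving out each library in turn. For single days the DESeq2 fit used a linear day term rather than a mean for each day, so model and test both differed.

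Genes named singly were all lambda, constant and J genes, the 12 Igkv genes with the largest mean share and 5 more with the largest share in 1 library, genes that passed a test, list genes that passed over 3 days, and Il21r. Genes named beside them from the blocked fit, and Cd79a, Cd79b, Ighg1, Ighg3, Jchain, Xbp1 and Mzb1, were chosen after their values were seen. Some list genes are not reported here.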

Additional observations from a re-analysis of the deposited data

How the results depend on the processing

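In brackets stands the number called among all genes tested, which were 11136 where no other total is given. The 3 light chain genes called by genotype over 3 days (582) became 8 of 117 when all genes with any count were tested (891 of 17126). They became 12 with DESeq2's Wald test (965) and 16 with day as a replicate block (2353). When single libraries were left out they ranged from 2 to 13. They were 5 of 104 without WT of day 10 (318 of 11155). Without Il21r-/- of day 10 they were 13 of 104 (1891 of 11103). The 7 called for the day trend (416) became 12 with any count (728 of 17126) and 17 with the Wald test (949). With a library left out they ranged from 0 to 17. They were 0 without either library of day 7, when no gene of any kind was called. Without WT on day 10 they were 14 (390 of 11155), and without Il21r-/- on day 10 they were 17 (2010 of 11103). Without WT on day 14 they were 4 (11 of 11141). On day 7 the 1 call (103) became 0 with DESeq2 size factors (102) or a minimum of 10 counts (76 of 11250). It became 3 with the Wald test (35) and 2 with the linear day term kept (119). With a library left out there were 2 to 4 calls (from 88 of 11141 to 148 of 11103). On day 10 the 0 calls (286) became 1 with TMM factors without Ig genes (291) or a minimum of 10 counts (248 of 11250). They became 12 with the Wald test (135) and 9 with the linear term (619). With a library left out there were 1 to 4 calls (from 234 of 11141 to 331 of 11145). On day 14 the 2 calls (306) became 1 with a minimum of 10 counts (233 of 11250) or any count (281 of 17126). They became 8 with the Wald test (95). With a library left out there were 2 to 8 calls (from 303 of 11155 to 514 of 11103). The cause of these changes was not tested.

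The lambda shares and the light chain share kept their sign under every alternative run for them, the latter at -1.13 points when counted per kilobase. With a library left out, the lambda share of constant gene counts ranged from -5.71 (without Il21r-/- on day 14) to -2.11 points (without Il21r-/- on day 7). The effective number of Igkv genes turned to -1.31 with the exponential of the Shannon entropy, and ranged from -6.87 (without WT on day 7) to 7.47 with a library left out. The Iglv1 share ranged from -0.0713 (without WT on day 14) to 1.78 points. None of these 5 values could pass 0.05 under either arrangement, since the smallest exact p is 0.1, or 0.25 with exchange within a day. With DESeq2's Wald test and a linear day term the day 14 calls of Iglv2 and Igkv4-78 were lost (adjusted p = 0.352 and 0.9995). With a library left out, the genotype log2 fold change of Iglv3 ranged from -0.12 to 0.28, of Igkc from -0.26 to 0.11, of Igkj1 from -0.42 to 0.15 and of Igkj2 from -0.41 to 0.37, and Igkj2 stood at -0.0069 with day as a block. Of 383 values under an alternative, 269 were rated the same as the main value. For 211 of these, all of single genes, this meant the same direction and side of the threshold. For the other 58 it meant a similar count of calls, or a difference of the same sign that moved by less than the pooled SD of the libraries. With 1 library per genotype and day, day and library cannot be told apart within a genotype, and low counts limit the J segments and most Igkv genes.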
